A study of Rattus norvegicus with 8 samples.

Results

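The genes described are 38 cell cycle genes, chosen by name from the G1 cyclins to the machinery of cytokinesis and followed through cultures of postmitotic sensory neurons and the dividing non-neuronal cells that can share them. Of the 38, 36 had a transcript in the per-library files, among 17379 genes in all. Top2a and Mcm5 were linked to a symbol only in the authors' deposited comparison tables, and are described from those.

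The RNA came from rat embryonic dorsal root ganglion neurons of embryonic day 15, grown for 7 days in microfluidic chambers, devices whose grooves let axons pass into a compartment away from the cell bodies. A lentivirus carried either a control hairpin (shControl) or a hairpin against Pum2 (shPum2), a Pumilio RNA-binding protein, and was added when the neurons were plated. Each of the 4 groups, somatic or axonal compartment with either hairpin, had 2 libraries. The somatic RNA is labelled as coming from cell bodies together with axons, the axonal RNA as axons alone. The library kit differed with the compartment (standard input for somatic RNA, ultra-low input for axonal RNA), and the effects of these 2 factors cannot be told apart. The labels do not say whether replicates came from separate dissections or cultures, so each p-value measures only the spread between these libraries.

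Dividing cells switch on S phase genes under E2F transcription factors and G2 and M phase genes later, through promoters that carry CCAAT boxes and a cell cycle homology region (CHR). Neurons of a ganglion have left the cycle and keep most of these genes low. Schwann cells, satellite glia, fibroblasts, endothelium and macrophages of the same ganglion can divide, and several of these genes also have uses in cells that do not divide.

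Per library, estimated counts summed to between 11641980 and 25821800. In the somatic libraries 14038 to 14263 genes had at least 1 count, and in the axonal libraries 9542 to 10730. Levels are given as CPM, counts scaled by the total of their library, in the order shControl replicate 1, shControl replicate 2, shPum2 replicate 1 and shPum2 replicate 2. Pum2, the gene the hairpin targets, read 164, 160, 38.2 and 36.5 CPM in the somatic libraries. In the axonal libraries Pum2 read 3.25, 0.443, 1.46 and 7.07 CPM, so that the 2 hairpins overlapped there. Of 15 neuron markers 14 were matched, and none of these was at 0 in any library.

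Promoter sequence, which the choice by name did not use, is shown first. The E2F-type motifs searched, though not the CCAAT boxes, divided the members by role. Of the 38 members 28 had an entry in the RefSeq promoter table (build GRCr8), which spans 250 bases before to 50 bases after the annotated start. Each was searched on both strands for CCAAT, for the CHR TTTGAA and its variant TTCGAA, and for the E2F-type motifs TTTCCCGC, TTTGGCGC and TTCCCGCC. A match is a description of these letters and not a shown binding site. Only these exact letters were searched, so other forms of an E2F site are missed. CCAAT was in 19 of the 28 (67.9%), against 38.4% of 19005 promoters of protein-coding genes. TTTGAA or TTCGAA was in 16 (57.1%, against 18.5%), and CCAAT together with either of them in 13 (46.4%, against 7.63%). An E2F-type motif was in 7 (25.0%, against 3.91%). TTTCCCGC and TTCCCGCC can overlap, as they do in Mcm3, and TTTGAA can run into ATTGG, the reverse complement of CCAAT.

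Of the 17 promoters of the G2 and M phase groups, 13 held TTTGAA or TTCGAA and 13 held CCAAT. Of the E2F-type motifs searched, 0 of these 17 promoters held any. The Cdk1 promoter holds TTTCGCGC, a letter away from TTTGGCGC, which was not among the letters searched. Of the 10 promoters of replication and nucleotide synthesis genes, 7 held an E2F-type motif (Mcm3, Mcm5, Mcm6, Mcm7, Cdt1, Rrm1 and Tyms), 6 held CCAAT and 3 held TTTGAA or TTCGAA. In 4 promoters, those of Ccne1, Tk1, Aurka and Bub1, none of the letters was found.

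The mitotic layout is shown by 5 genes in stretches from the RefSeq build GRCr8, written 5′ to 3′ along the gene with the motifs in capitals. Mki67 (Ki-67, which coats mitotic chromosomes) lies at chr1:199952677-199952788 (minus strand), Cdk1 (the kinase that starts mitosis) at chr20:19265077-19265288 (plus strand) and Cdca8 (borealin, of the chromosomal passenger complex) at chr5:142483278-142483397 (minus strand). Cdc20, an activator of the anaphase-promoting complex (APC/C), lies at chr5:137255830-137255891 (minus strand) and Nusap1, a spindle protein, at chr3:127057096-127057315 (plus strand). In Mki67 and Cdca8 a TTTGAA runs into an ATTGG.
Mki67: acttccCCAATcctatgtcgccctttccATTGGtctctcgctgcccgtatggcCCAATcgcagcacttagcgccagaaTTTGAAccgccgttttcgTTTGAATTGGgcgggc
Cdk1: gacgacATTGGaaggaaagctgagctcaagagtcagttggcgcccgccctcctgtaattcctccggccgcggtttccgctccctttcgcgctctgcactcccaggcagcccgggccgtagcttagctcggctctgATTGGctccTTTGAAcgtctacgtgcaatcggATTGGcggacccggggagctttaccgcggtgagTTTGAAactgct
Cdca8: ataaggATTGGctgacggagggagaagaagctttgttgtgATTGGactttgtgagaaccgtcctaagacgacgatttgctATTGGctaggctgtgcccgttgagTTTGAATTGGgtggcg
Cdc20: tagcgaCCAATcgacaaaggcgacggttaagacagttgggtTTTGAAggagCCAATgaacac
Nusap1: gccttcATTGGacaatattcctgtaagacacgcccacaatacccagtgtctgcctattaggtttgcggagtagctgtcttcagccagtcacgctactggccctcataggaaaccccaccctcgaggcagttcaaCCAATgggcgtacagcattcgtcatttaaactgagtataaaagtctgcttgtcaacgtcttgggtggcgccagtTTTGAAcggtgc

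The S phase layout is shown by 4 genes from the same build, again with the motifs in capitals. Mcm6 and Mcm7, subunits of the replicative helicase, lie at chr13:42404385-42404497 (minus strand) and chr12:22163213-22163425 (minus strand). Rrm1, the large subunit of ribonucleotide reductase, lies at chr1:166235684-166235884 (plus strand) and Tyms, thymidylate synthase, at chr9:120776107-120776126 (minus strand). The E2F-type match is TTTGGCGC in Mcm6 and Tyms, the reverse complement of TTTCCCGC in Mcm7 and TTCCCGCC in Rrm1.
Mcm6: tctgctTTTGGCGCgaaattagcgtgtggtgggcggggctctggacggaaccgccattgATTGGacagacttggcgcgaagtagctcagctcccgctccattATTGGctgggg
Mcm7: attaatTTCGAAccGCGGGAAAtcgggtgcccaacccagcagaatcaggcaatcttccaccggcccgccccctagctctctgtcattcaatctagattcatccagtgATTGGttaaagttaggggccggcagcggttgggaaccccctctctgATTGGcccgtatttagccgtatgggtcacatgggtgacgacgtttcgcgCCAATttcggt
Rrm1: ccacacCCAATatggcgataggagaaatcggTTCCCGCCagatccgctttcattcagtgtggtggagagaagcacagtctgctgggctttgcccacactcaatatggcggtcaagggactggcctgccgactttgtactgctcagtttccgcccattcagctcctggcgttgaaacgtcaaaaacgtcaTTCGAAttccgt
Tyms: gcgggtTTTGGCGCcgacta

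**Figure D1:**
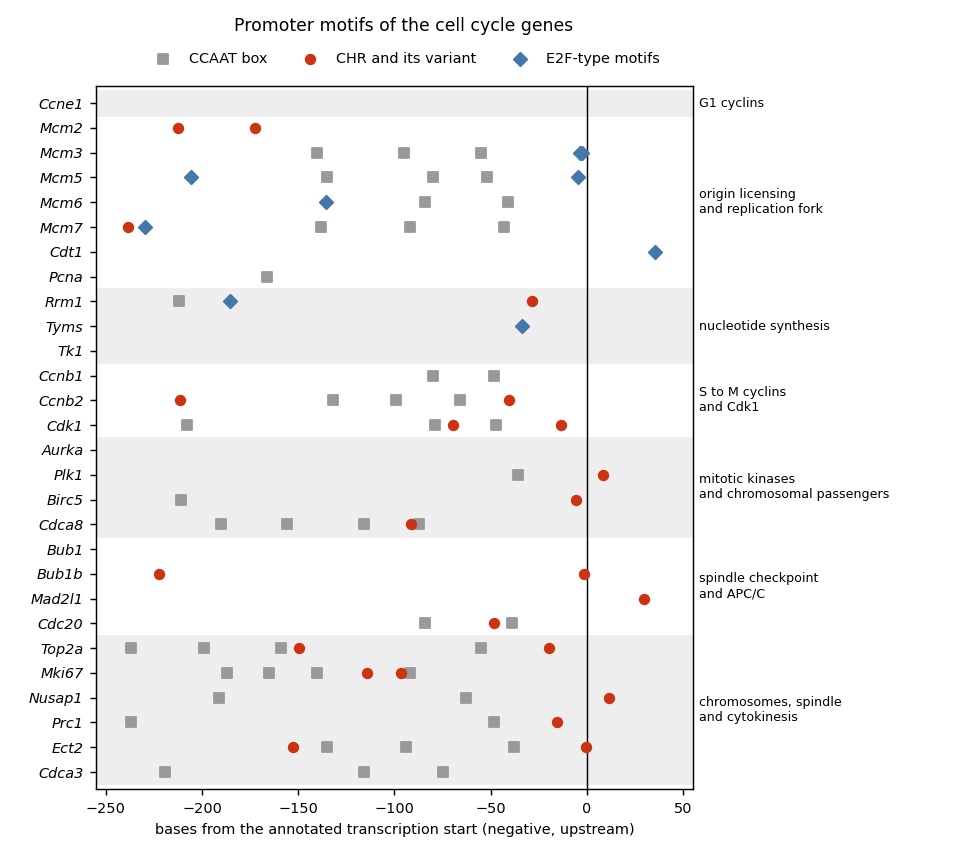
Positions of motif matches in the 28 member promoters, 1 row per gene by role group, against the distance in bases from the annotated start. CHR matches (red) are in 13 of 17 G2 and M phase promoters and E2F-type matches (blue) in 7 of 10 replication and nucleotide synthesis promoters.

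In the somatic libraries the cell cycle genes were read at low levels, and their range was set by a single library. Replicate 1 of shPum2 held the highest level of all 36 members, while 40.9% of 12828 genes had their highest level there. The sum over the 36 members was 406, 282, 770 and 290 CPM. Over the mean of the other 3 somatic libraries, the members' level in that library was higher by a median of 2.64-fold, from 1.17-fold for Aurka to 5.11-fold for Cdk1, and 24 of 36 exceeded 2-fold. The same median over all genes was 1.03-fold. In bulk RNA, fewer cells of a type and less RNA per cell cannot be told apart.

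The other libraries also had an order. The members were higher in replicate 1 than in replicate 2 of shControl in 34 of 36 cases, by a median of 1.64-fold, against 57.4% of all genes. Between replicate 2 of shPum2 and replicate 2 of shControl, 16 of 36 members were higher with shPum2, with a median ratio of 0.990. No member was at 0 in a somatic library, and the lowest count was 23.

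Corrected for transcript length, on the TPM scale of the deposited files, the members spanned a wide range in the somatic shControl libraries. Pcna, the sliding clamp of the replication fork, was the highest at 52.2 ± 0.783 TPM (SD, n = 2). Next came Ccnd2 at 30.2 ± 17.1, Aurka at 28.6 ± 2.21 and Rrm1 at 18.5 ± 2.26 TPM. Ccnd2, Aurka and Rrm1 followed in that order of means, but the Ccnd2 replicates spread across the levels of both others. The lowest were Bub1b at 0.668 ± 0.370, Ect2 at 0.704 ± 0.397 and Mki67 at 1.31 ± 0.617 TPM, whose ranges of mean and SD overlapped. For scale, Pum2 was at 45.6 ± 1.45 TPM in the same libraries.

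The G1 cyclins partner CDK4 and CDK6, or for cyclin E CDK2, and carry cells into S phase. Ccnd1 (cyclin D1) read 16.8, 9.13, 45.9 and 13.7 CPM. Ccnd2 (cyclin D2) read 31.6, 13.7, 91.2 and 17.7 CPM, the widest absolute span of any member. Ccne1 (cyclin E1) read 14.1, 9.06, 23.6 and 7.98 CPM. In all 3, replicate 1 of shPum2 was the highest and the shControl levels overlapped the shPum2 levels.

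Origin licensing loads the MCM helicase, through Cdc6 and Cdt1, onto origins before S phase. Mcm2 read 13.5, 9.66, 26.8 and 11.1 CPM, and Mcm3 read 6.58, 2.76, 14.5 and 2.25 CPM. Mcm4 read 29.5, 23.2, 42.4 and 23.0 CPM, so that both second replicates were nearly equal. Cdt1 read 5.80, 3.11, 10.9 and 2.79 CPM. Pcna read 30.8, 31.9, 52.0 and 31.6 CPM, 3 close levels with 1 above them. For the other genes of this group, Mcm6, Mcm7 and Cdc6, replicate 1 of shPum2 stood 2.36-fold, 1.91-fold and 2.30-fold above the mean of the others.

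Nucleotide synthesis supplies deoxynucleotides to the fork. Rrm1 read 34.4, 29.4, 50.3 and 27.8 CPM. Its partner Rrm2, the subunit that is made in S phase, read 16.02, 5.87, 41.4 and 7.67 CPM, a wider spread than that of Rrm1. Tyms read 11.0, 3.71, 22.4 and 3.76 CPM, and Tk1 (thymidine kinase 1) read 11.7, 8.54, 17.6 and 9.80 CPM. Rrm2 and Tyms were 4.20-fold and 3.64-fold higher in replicate 1 of shPum2 than in the others on average, Rrm1 and Tk1 1.65-fold and 1.76-fold.

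Cyclins A and B switch Cdk1 on for the entry into mitosis. Cdk1 read 4.66, 1.68, 13.0 and 1.28 CPM, a 10.2-fold difference between the 2 shPum2 replicates. Ccna2 (cyclin A2) read 3.95, 2.16, 11.2 and 1.86 CPM. Ccnb1 and Ccnb2 (cyclins B1 and B2) read 9.35, 5.96, 13.3 and 5.98 CPM, and 4.42, 1.98, 8.89 and 1.90 CPM. The replicates of shPum2 enclosed the shControl levels of Cdk1, Ccna2 and Ccnb2.

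Among the mitotic kinases and chromosomal passengers, Aurka stood apart. This centrosomal kinase read 39.9, 36.3, 44.2 and 37.2 CPM, a nearly flat level. Its relative Aurkb, the kinase of the passenger complex, read 4.66, 1.55, 10.5 and 1.32 CPM. Plk1 (polo-like kinase 1) read 3.53, 3.58, 7.62 and 2.05 CPM. Birc5 (survivin) and Cdca8, both passengers, were 1.75-fold and 1.76-fold higher in replicate 1 of shPum2 than in the others on average.

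The spindle checkpoint holds APC/C back until chromosomes are attached. Bub1, a checkpoint kinase, read 5.26, 5.05, 8.56 and 5.81 CPM, and both shPum2 libraries lay above both shControl libraries. Bub1b (BubR1) read 2.33, 1.04, 6.73 and 0.968 CPM. Mad2l1, the checkpoint protein that binds Cdc20, read 7.41, 5.31, 11.0 and 4.96 CPM. Cdc20 itself read 5.02, 4.66, 13.2 and 4.61 CPM, so that 3 libraries were alike and 1 was higher. Ube2c, the ubiquitin-conjugating enzyme of APC/C, read 3.11, 1.81, 5.41 and 2.25 CPM.

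The last group builds chromosomes, the spindle and the cleavage furrow. Mki67 read 10.04, 5.09, 32.2 and 4.88 CPM, highest in replicate 1 of shPum2 by 4.83-fold over the others on average. Tpx2, an activator of Aurora A on the spindle, read 7.71, 4.19, 17.5 and 3.83 CPM. Nusap1 read 2.93, 1.42, 7.10 and 1.63 CPM. Prc1, which bundles the central spindle, read 6.40, 3.58, 13.9 and 4.69 CPM. The furrow regulators differed from each other. Ect2, an exchange factor for RhoA, read 2.27, 0.992, 6.87 and 1.28 CPM. Racgap1, the centralspindlin subunit that recruits Ect2, read 10.04, 9.45, 13.9 and 7.86 CPM. Cdca3, a trigger of mitotic entry, read 2.81, 1.55, 6.92 and 1.28 CPM.

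**Figure D2:**
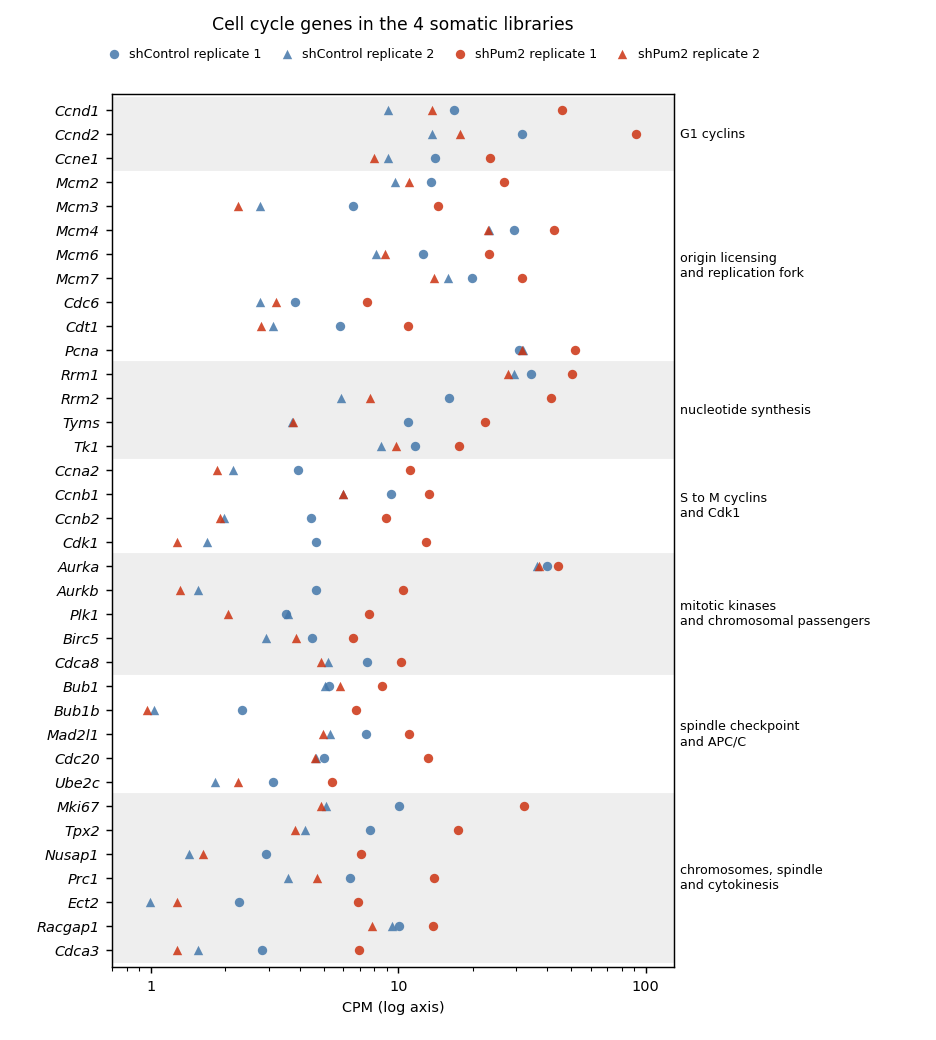
Level of each of the 36 members in the 4 somatic libraries, in CPM on a log axis, with genes in rows by role group. Blue marks shControl, red shPum2, circles replicate 1 and triangles replicate 2; the red circle is the rightmost point in all 36 rows.

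Markers of other cell types moved with the same library. The 11 matched fibroblast markers summed to 3621, 1879, 9190 and 1853 CPM, and all 11 were higher in replicate 1 of shPum2 than in the others on average, by a median of 3.53-fold. The 15 macrophage and blood markers summed to 134, 86.5, 300.4 and 74.5 CPM, again with 15 of 15 higher there (median 3.14-fold). The endothelial and mural markers summed to 185, 80.5, 344 and 88.5 CPM, with 11 of 12 higher (median 2.06-fold). For Schwann and satellite glia 11 of 13 were higher, by a median of 1.75-fold, while their sum was lowest there (1758, 1658, 1451 and 1689 CPM). Neuron markers summed to 37962, 38297, 32665 and 38136 CPM, with 1 of 14 higher (median 0.852-fold). No marker was at 0 in a somatic library, and the part of these cells in the members' levels was not tested.

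**Figure D3:**
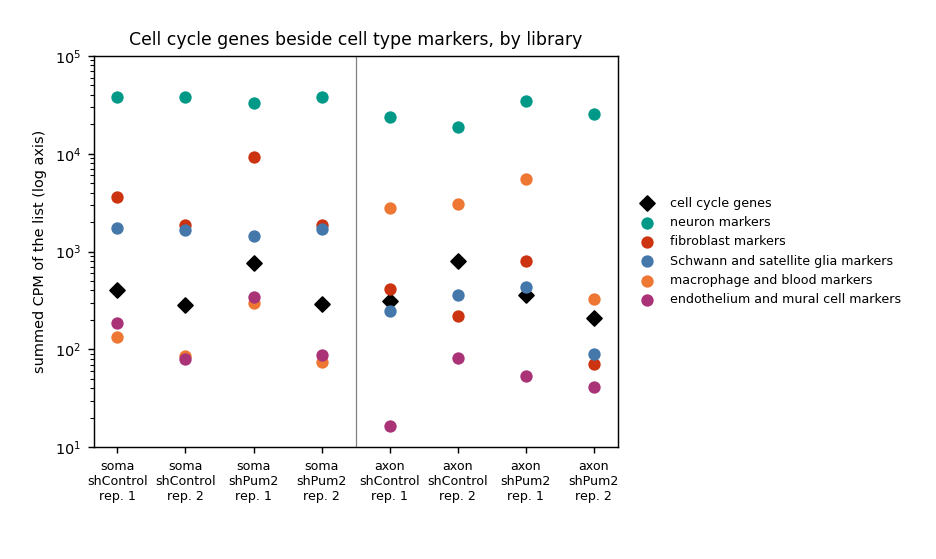
Summed CPM (log axis) of the 36 cell cycle genes (black diamonds) and of 5 marker lists (circles) in each of the 8 libraries, somatic left of the line. In soma shPum2 replicate 1 the cell cycle sum (770 CPM) and the fibroblast sum (9190 CPM) are the highest of the somatic libraries.

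The somatic hairpin comparison asks whether less Pum2 changed the level of these genes in the cell body compartment. None of the 36 members passed the test (edgeR quasi-likelihood, Benjamini-Hochberg adjustment over 12346 genes), none had an unadjusted p under 0.05, and DESeq2 called none (0.0133% of all genes). By edgeR 0.00810% of all genes passed, which is Pum2 alone, and 74 had an unadjusted p under 0.05. All 36 estimates were positive, with a median log2 difference of 0.68 and a range from 0.08 (Aurka) to 1.30 (Ect2), against a median of 0.01 over all genes. Both shPum2 libraries lay above both shControl libraries for 1 member, Bub1, against 11.5% of all genes, and below them for 0, against 13.0%.

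The smallest p-values among the members belonged to Ccnd1, Bub1 and Pcna. Their log2 differences were 1.17 (SE 0.62) for Ccnd1, 0.46 (SE 0.26) for Bub1 and 0.40 (SE 0.23) for Pcna, each with an edgeR adjusted p of 0.9997. Without replicate 1 of shPum2 the members' median log2 difference was -0.32, and 32 of 36 estimates turned negative. The direction over the whole set thus rested on that library. The remaining fit still held replicate 1 of shControl, which lay above replicate 2 for 34 of 36 members. Between the second replicates alone, the median ratio of shPum2 to shControl was 0.990, with 16 of 36 members higher.

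By role, the median log2 difference was 1.17 for the G1 cyclins, 0.60 for licensing and replication, 0.62 for nucleotide synthesis and 0.90 for the S to M cyclins with Cdk1. It was 0.41 for the mitotic kinases and passengers, 0.62 for the checkpoint and APC/C genes and 0.88 for the chromosome, spindle and cytokinesis genes. In none of these groups did a member pass the test, and in each all tested members had positive estimates.

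In the authors' deposited table of the somatic comparison, 38 of 38 members had a positive log2 fold change, as did 53.8% of all genes with a value. The members' median in the authors' deposited table was 0.07, from 0.03 for Top2a to 0.18 for Ccnd1, and 0 of 38 passed an adjusted p of 0.05, against 0.0134% of all genes. Top2a, the topoisomerase that untangles chromosomes, had a log2 fold change of 0.027 (SE 0.037) in the authors' deposited table, and Mcm5, a helicase subunit, 0.13 (SE 0.076). The folds there are much smaller than the edgeR estimates, and how DESeq2 was set is not given in the sources used here.

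In the axonal libraries most members were still read, and many mostly in a single library. Counts were present in all 4 axonal libraries for 26 of 36 members, 10 were at 0 in at least 1 and 7 in at least 2. More than 50% of the summed axonal CPM came from 1 library for 28 of 36. Shares over all genes for these counts were not computed. Over all 36 members, the highest axonal library was shControl replicate 1 for 11 and shControl replicate 2 for 14. It was shPum2 replicate 1 for 6 and shPum2 replicate 2 for 5. The same split over all genes was not computed, so it shows no lean particular to the members. Among members at 1 CPM or more on average, replicates differed by over 8-fold for 16 of 31 with shControl and 10 of 25 with shPum2. Over all genes at that level these shares were 39.5% and 40.5%, so the members were not alone in this.

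Summed over the 36 members, the axonal libraries read 315, 803, 364 and 207 CPM. The 3 G1 cyclins summed to 72.2, 283, 153 and 87.3 CPM. Ccnd2 read 48.6, 211, 61.8 and 69.8 CPM and Ccnd1 read 16.02, 71.9, 91.3 and 15.0 CPM, and both were detected in every axonal library. Ccne1 read 7.53, 0.369, 0.0859 and 2.48 CPM.

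S phase genes were uneven. Rrm2 read 19.2, 142, 18.2 and 0.0620 CPM, so its 2 shPum2 libraries were both below both shControl libraries and far from each other. Mcm4 read 0.599, 91.0, 0.945 and 2.73 CPM, with shControl replicate 2 holding nearly all of it. Pcna read 44.1, 1.92, 28.3 and 10.2 CPM. Cdc6 was steady by comparison, at 11.7, 11.7, 3.78 and 7.95 CPM. Mcm7 read 22.3, 6.28, 6.18 and 19.8 CPM, Rrm1 16.1, 40.6, 17.4 and 0.0620 CPM.

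Of the G2 and M phase genes, Ube2c was detected throughout, at 13.1, 19.7, 5.84 and 10.2 CPM. Cdk1 read 0.257, 16.6, 7.47 and 6.14 CPM. Tpx2 read 18.8, 19.9, 6.10 and 0.930 CPM, and Nusap1 10.7, 23.0, 1.72 and 0.0620 CPM. Both were lower in both shPum2 libraries. Racgap1 read 0.941, 68.1, 0 and 0.0620 CPM, that is 933 counts in 2 shControl libraries and 1 count in 2 shPum2 libraries. Mki67 went the other way, at 0.941, 0.148, 4.72 and 6.08 CPM, from 13 counts with shControl and 153 with shPum2.

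Several mitotic genes were absent from libraries at this depth. Bub1 read 0, 0, 0.344 and 1.18 CPM. Ect2 was counted only in shControl replicate 1, at 2.82 CPM, and Bub1b almost only in shPum2 replicate 1, at 14.5 CPM. Aurkb and Plk1 were at 0 in replicate 1 of shControl and replicate 2 of shPum2, and Ccna2 at 0 in both second replicates. A count of 0 allows a level of up to 0.186 to 0.258 CPM (3 counts of the library total), for counting error only.

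**Figure D4:**
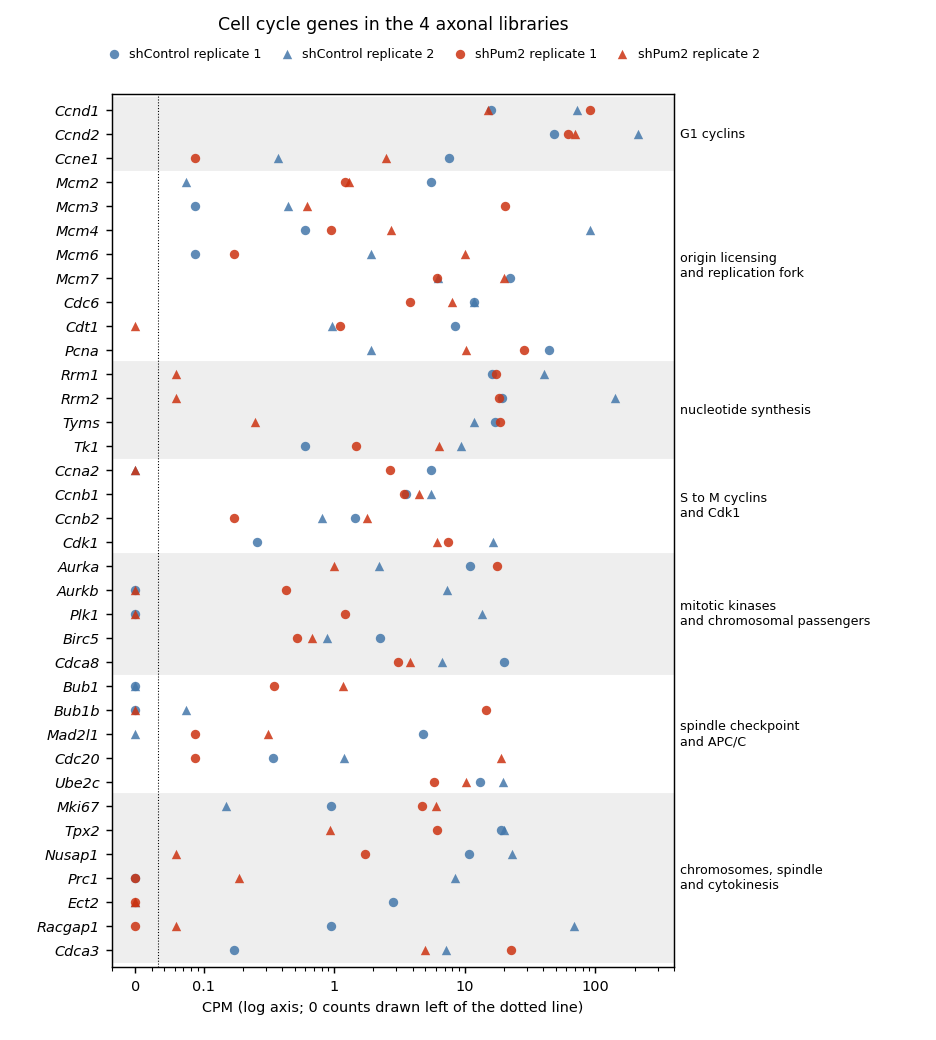
Level of each of the 36 members in the 4 axonal libraries, in CPM on a log axis, with libraries at 0 counts drawn left of the dotted line. Colours and symbols mark hairpin and replicate as in the legend; the points of a gene are far apart, and 10 genes have a point at 0.

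The axonal hairpin comparison asks the same question of RNA from the axon side. None of the 29 members tested passed (edgeR quasi-likelihood, Benjamini-Hochberg over 8517 genes), 1 had an unadjusted p under 0.05 and DESeq2 called 1, Racgap1. Over all genes the edgeR test called 0%, with 257 genes at an unadjusted p under 0.05 and 334 called by DESeq2, which is 3.79% of those it gave an adjusted p. Of the 9 members not tested, 7 were too sparse for the filter on low counts and 2 were Top2a and Mcm5. The median log2 difference of the 29 was -1.04, against -0.05 over all genes, with 6 positive and 23 negative. Both shPum2 libraries lay below both shControl libraries for 8 of the 29 (Birc5, Cdc6, Cdca8, Nusap1, Racgap1, Rrm2, Tpx2 and Ube2c), against 12.0% of all genes. They lay above for 1, Mki67, against 15.8%. The biological coefficient of variation was 125% here and 23.5% in the somatic comparison.

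Racgap1 had the smallest p, with a log2 difference of -9.62 (SE 3.19, edgeR adjusted p = 0.9998). DESeq2 gave -9.95 with an adjusted p of 0.00393, and in the authors' deposited table the log2 fold change was -7.89 (SE 1.74, DESeq2 adjusted p = 0.00148). From counts summed within each hairpin and scaled by their totals, the ratio of shControl to shPum2 was 1027. Its 95% counting interval, from 184 to 40626, holds no replicate error, and a single shControl library carried nearly all the counts. Mcm4 followed at -4.58 (SE 2.39) and Nusap1 at -4.57 (SE 2.63), each with an edgeR adjusted p of 0.9998. Without shControl replicate 2, the Mcm4 difference was 1.63, the opposite direction.

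Bub1 and Ect2 had no counts in 1 of the hairpin groups, and neither was tested in the axonal comparison. All 33 axonal counts of Ect2 were in shControl replicate 1. Of the axonal counts of Bub1, 19 were in shPum2 replicate 2 and 4 in shPum2 replicate 1. With these counts wholly or mostly in 1 library, no fold is given for them. The median difference by role ran from -2.75 for the 5 tested chromosome, spindle and cytokinesis genes to 1.36 for the 2 tested checkpoint and APC/C genes, Cdc20 and Ube2c. It was -1.04 for the G1 cyclins, -1.001 for licensing and replication and -1.52 for nucleotide synthesis.

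In the authors' deposited table of the axonal comparison, 11 members were higher and 27 lower with shPum2, with a median log2 fold change of -0.89. Racgap1 was the 1 member past an adjusted p of 0.05 in the authors' deposited table, against 4.03% of all genes, and 6 members had no adjusted p. Top2a stood at 1.34 (SE 1.49) and Mcm5 at 0.47 (SE 2.33) in the authors' deposited table.

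**Figure D5:**
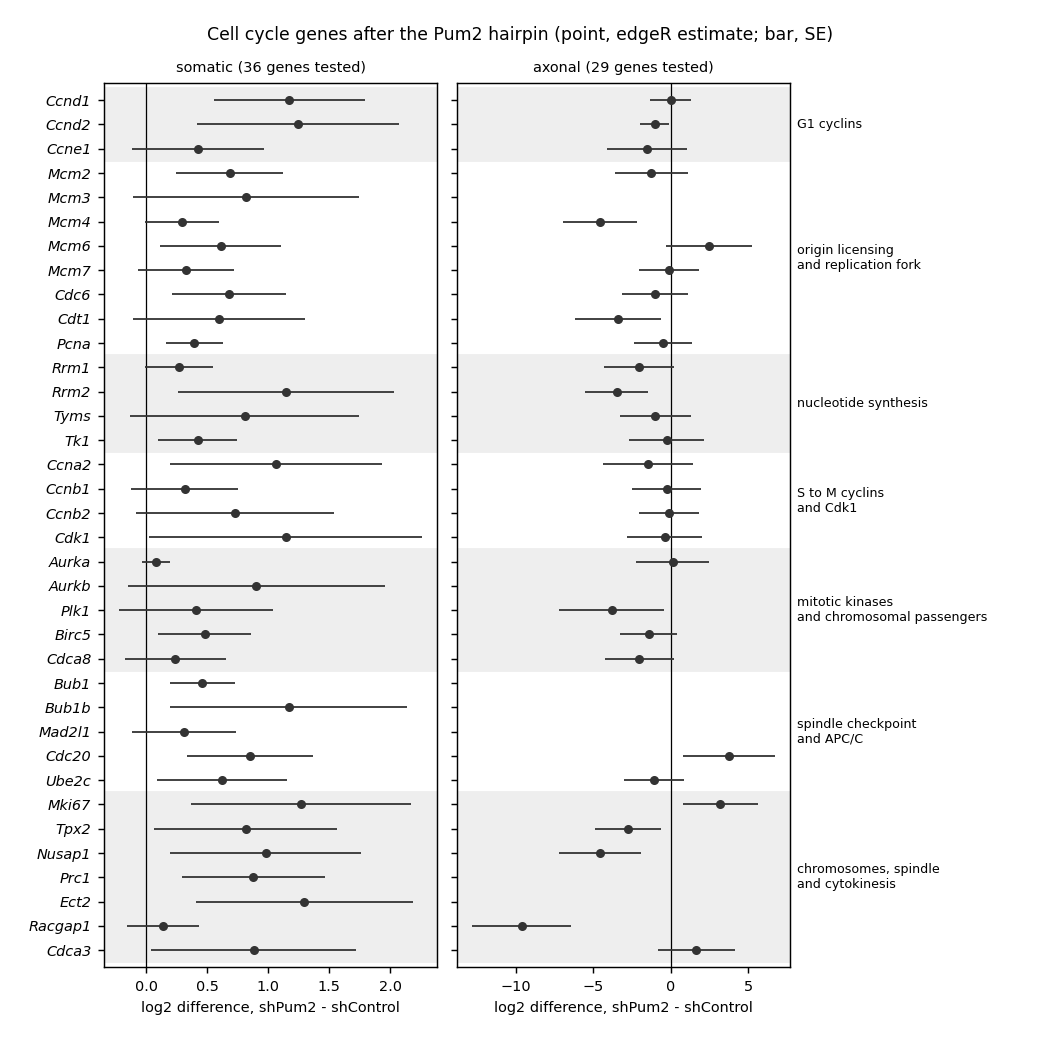
Log2 difference between shPum2 and shControl for each member, with the edgeR estimate as a point and its SE as a bar, in the somatic (left) and axonal (right) libraries. The 36 somatic estimates lie between 0.08 and 1.30 and the 29 axonal estimates between -9.62 and 3.77, on different axes.

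Marker levels in the axonal libraries did not follow a single pattern. Macrophage and blood markers summed to 2815, 3038, 5537 and 330.1 CPM, fibroblast markers to 411, 219, 793 and 70.8 CPM, and Schwann and satellite glia markers to 250, 362, 438 and 88.7 CPM. Endothelial and mural markers summed to 16.4, 82.3, 52.9 and 41.6 CPM. All but the last list were lowest in replicate 2 of shPum2, as was the members' sum. Gfap, Kcnj10 and Cdh19 of the glial list and Cdh5 and Kdr of the endothelial list were at 0 in all 4 axonal libraries. The part of these cells in the axonal values was not tested.

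Whether the hairpin acted differently in the 2 compartments was tested as an interaction over all 8 libraries, which uses the same libraries as the comparisons above. None of the 36 members passed (edgeR quasi-likelihood, Benjamini-Hochberg over 12337 genes), 4 had an unadjusted p under 0.05, and DESeq2 called 2, Racgap1 and Nusap1. Over all genes edgeR called 0%, with 964 at an unadjusted p under 0.05 and 631 called by DESeq2 (5.61%). The median difference of log2 differences was -1.82 for the members and -0.01 for all genes, with 8 positive and 28 negative. Racgap1 stood at -9.89 (SE 2.95, edgeR adjusted p = 0.481), Bub1 at 7.59 (SE 2.33, adjusted p = 0.562) and Nusap1 at -5.55 (SE 2.17, adjusted p = 0.572). Without shControl axonal replicate 1, Racgap1 passed at -10.89 (edgeR adjusted p = 0.0395). Without shControl axonal replicate 2, the library at 68.1 CPM, it stood at -4.79 (edgeR adjusted p = 0.233). The Bub1 estimate rests on a group at 0 and depends on the prior count.

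Between compartments with shControl, 2 members were higher in the axonal libraries and 1 lower, of 36 tested (edgeR quasi-likelihood, Benjamini-Hochberg). Over all 12337 genes 9.41% were called higher and 18.5% lower, shares that the members' counts did not exceed. Ube2c rose from 2.46 ± 0.917 CPM in the somatic to 16.4 ± 4.69 CPM (SD, n = 2) in the axonal libraries, a log2 difference of 4.32 (SE 1.15, edgeR adjusted p = 0.0353). Ccnd2 rose from 22.6 ± 12.6 to 129.9 ± 114.9 CPM (SD, n = 2), a log2 difference of 4.09 (SE 1.11, edgeR adjusted p = 0.0368). Bub1 fell from 5.15 ± 0.151 CPM (SD, n = 2) to 0 counts, at least 43.2-fold lower (edgeR adjusted p = 0.0244), taking 3 counts over the group at 0 as the floor.

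These differences are relative to a scaling (TMM) under which the median of all genes was -0.75. The members' median was 1.40 under that scaling, with 28 positive and 8 negative estimates. With plain total counts the members' median was -0.19 against -2.34 for all genes, and 12 of 36 members turned direction. Bub1, which kept its direction, was the 1 member called. On that scale Ube2c stood at 2.74 (edgeR adjusted p = 0.0764) and Ccnd2 at 2.52 (adjusted p = 0.119), both still higher in the axonal libraries. When either somatic shControl library was left out no gene was called at all. DESeq2 called 9 members, against 38.7% of all genes.

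With shPum2, none of the 36 members differed between compartments by edgeR, 3 had an unadjusted p under 0.05 and DESeq2 called 3, Racgap1, Ube2c and Cdc6. Of all 12337 genes 4569 had an unadjusted p under 0.05, and DESeq2 called 33.6% of those it gave an adjusted p. By edgeR 8.45% were higher and 16.2% lower in the axonal libraries. Racgap1 had a log2 difference of -6.52 (SE 2.31, edgeR adjusted p = 0.0872). Ube2c stood at 2.74 (SE 1.07, adjusted p = 0.116), with 3.83 ± 2.24 CPM somatic and 8.03 ± 3.10 CPM axonal (SD, n = 2). Ect2 was at 0 counts in the axonal libraries, at least 35.2-fold below the pooled somatic level (edgeR adjusted p = 0.133). Of its 179 somatic shPum2 counts, 146 were in replicate 1, at 6.87 CPM against 1.28 CPM in replicate 2. That bound thus rests mostly on a single somatic library. The members' median was -0.22 against -0.64 for all genes, and under total counts -1.79 against -2.03. Without axonal shPum2 replicate 1, 3 members passed, Cdc6, Ube2c and Rrm1.

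Cell type markers were read between the compartments as well. Of 15 macrophage and blood markers, 7 were higher in the axonal libraries with shControl and 0 lower, with a median log2 difference of 6.17. Of 11 fibroblast markers 0 were higher and 2 lower (median -1.63), and of 14 neuron markers 1 was higher and 4 lower (median -0.82). Of 12 Schwann and satellite glia markers 1 was higher and 1 lower (median 1.14), and of 11 endothelial and mural markers 0 were higher and 2 lower (median -1.85). Over all genes 9.41% were higher and 18.5% lower, with a median of -0.75. The part of these cells in the compartment differences of the members was not tested.

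The rest of the cell cycle machinery was read from 4 further lists. In the somatic hairpin comparison no gene of them passed. Of 41 further mitotic genes 38 were positive, with a median log2 difference of 0.59, and of 29 further replication genes 26 (median 0.22). Of 18 CDK inhibitors and cell cycle exit genes 12 were positive (median 0.18), and of 11 further cyclins and CDKs 6 (median 0.07). In replicate 1 of shPum2 these 4 lists stood 2.26-fold, 1.40-fold, 1.21-fold and 1.13-fold above the mean of the other somatic libraries by their medians.

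In the axonal hairpin comparison no gene of these 4 lists passed either. Rpa2, a subunit of the single-strand binding protein of the fork, read 0, 0.148, 16.3 and 14.6 CPM, with an edgeR adjusted p of 0.9998. Cdk2, the partner of cyclin E, read 0.0856, 0, 3.09 and 13.3 CPM. Rfc3, a subunit of the clamp loader of Pcna, read 14.2, 25.9, 0.601 and 0.620 CPM. Each of these 3 genes was among the 3 with the smallest p in its own list. That choice favours hairpins that do not overlap, and they did not overlap here. Both shPum2 libraries lay above both shControl libraries for 4 and below for 4 of 20 further replication genes tested, for 3 and 3 of 23 mitotic genes, for 1 and 2 of 16 exit genes and for 1 and 2 of 9 cyclins and CDKs. Over all genes these shares were 15.8% above and 12.0% below.

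Between compartments with shControl, 2 of 29 further replication genes were higher and 3 lower in the axonal libraries, 4 and 4 of 41 further mitotic genes, 2 and 0 of 18 exit genes, and 0 and 2 of 11 further cyclins and CDKs. Over all genes 9.41% were higher and 18.5% lower. The log2 differences are under the TMM scaling, where the median of all genes with shControl was -0.75. Gins2, a subunit of the GINS complex of the replicative helicase, read 16.5 and 13.7 CPM in the somatic and 256 and 132 CPM in the axonal shControl libraries, a log2 difference of 5.28 (SE 0.69, edgeR adjusted p = 0.00675). Its partner Gins1 was at 0 in all 4 axonal libraries and between 1.51 and 3.39 CPM in the somatic ones. Gins1 thus read in the opposite direction to Gins2, but from a low somatic level. Loss of such low transcripts in the axonal libraries was not tested.

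Cks1b, a small protein that binds cyclin-dependent kinases, rose from 26.0 and 28.1 CPM to 96.3 and 177 CPM (edgeR adjusted p = 0.0136). Cdk8, the Mediator kinase, fell from 44.8 and 43.1 CPM to 0 and 0.148 CPM (adjusted p = 0.0196). Cdk5r1 (p35), the neuronal activator of Cdk5, fell from 53.3 and 43.0 CPM to 0.0856 and 0.222 CPM (adjusted p = 0.0287). Cdkn2c, the inhibitor p18, read 0.717 and 0.475 CPM in the somatic and 15.1 and 235 CPM in the axonal libraries (log2 difference 9.25, SE 1.81, edgeR adjusted p = 0.0190). With shPum2, Gins2 rose again, to 85.2 and 122 CPM from 18.4 and 13.5 CPM (log2 difference 4.33, SE 0.66, edgeR adjusted p = 0.0117). No gene was called in either compartment comparison when a somatic library of that hairpin was left out.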

How the data were processed

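Libraries were sequenced on an Illumina HiSeq and quantified as estimated counts per RefSeq transcript with kallisto on Rnor_6.0, per the submitters' processing notes and the file headers; versions are not given in the sources used here. The deposited files also hold TPM values and transcript lengths, and the authors' 2 comparison tables hold DESeq2 mean normalised counts (a signal), log2 fold changes, a test score and p-values, per the file headers.

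Estimated counts were summed to genes through RefSeq symbols (GRCr8; 17367 of 18321 transcripts, 94.8%) and rounded. Reads shared by near-identical genes were split by kallisto, so levels of close paralogs are uncertain. CPM use the total of each library, 11641980 to 25821800. Tests used edgeR 4.0.16 (quasi-likelihood, TMM, filterByExpr) in R 4.3.3, with Benjamini-Hochberg adjustment over all genes tested and a threshold of 0.05, without a replicate block. The hairpin comparisons were fitted within a compartment, the interaction and the 2 compartment comparisons over all 8 libraries. Each SE given with an edgeR difference is its absolute value over the square root of the F statistic of its test. It is not the same measure as the SE in the authors' deposited tables. Alternatives were DESeq2 1.42.0, other scalings, no filter, a replicate block and each library left out, and the scripts were tested on simulated data. Intervals and floors (3 counts) cover counting error only.

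Full statistics are given for the 3 members with the smallest p in each comparison, and up to 3 genes of each other list are named. The members and lists were chosen with earlier results of these data known.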

Additional observations from a re-analysis of the deposited data

How the results depend on the processing

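In the somatic hairpin comparison, 0 members passed in every setting run, and Pum2 was the 1 gene called. DESeq2 called 2 genes, a single fit over all 8 libraries 0, and fits without 1 library 0 to 1. The members' median log2 difference ran from -0.32 to 1.21 with 1 library left out. In the axonal comparison DESeq2 called 1 member and 334 genes, and no expression filter gave 6 genes. Leaving out 1 library gave 0 to 31 genes, member medians from -2.03 to -0.69, and for Mcm4 differences from -5.96 to 1.63 (the last without shControl replicate 2). In the interaction DESeq2 called 2 members and 631 genes. With 1 library left out, 0 to 1 members and 0 to 713 genes were called, and the members' median ran from -2.74 to -0.86. The causes of these shifts were not tested.

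Between compartments with shControl, 3 members and 3445 genes passed. DESeq2 called 9 members, a fit of the 4 shControl libraries alone 5, and total counts 1 (median -0.19). Without 1 library, 0 to 7 members and 0 to 4664 genes passed, and the median ran from 0.57 to 1.82. With shPum2, 0 members and 3046 genes passed. DESeq2 called 3 members, and total counts 1 (median -1.79). Without 1 library, 0 to 3 members and 0 to 4862 genes passed, and the median ran from -1.18 to 0.71. A lone library was assumed to vary like the other groups.

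Replicate numbers are shared between groups, but nothing in the labels pairs them. The correlation of the replicate difference between hairpins was 0.74 in the somatic and 0.08 in the axonal libraries. With the replicate block, 0 members passed in the shControl compartment comparison (median 0.82). The somatic members' median was 0.54, and the block changed no count of members called in the other 4 comparisons. Low axonal counts, with 22 of 36 members at 3 counts or fewer in at least 1 library, limit what could be detected.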

Other observations

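The ratio of the members' sum to the fibroblast marker sum differed more between libraries of the axonal compartment than of the somatic one. In the somatic libraries the members' sum was 11.2% and 15.03% of the fibroblast sum with shControl, and 8.38% and 15.6% with shPum2. In the axonal libraries it was 76.5% and 367% with shControl, and 45.9% and 293% with shPum2. The 2 sums are of different genes, so the percentages carry no absolute meaning.

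Cdkn2b, an inhibitor of CDK4 and CDK6, read 20.04 and 9.10 CPM in the axonal shControl libraries and 0 in both axonal shPum2 libraries, with an edgeR adjusted p of 0.9998 in the axonal hairpin comparison. In the somatic libraries Cdkn2b read 1.76, 1.48, 2.03 and 1.87 CPM.

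Stmn1, a microtubule regulator placed in the list of further mitotic genes and also made by neurons, read 1098, 1095, 993 and 1109 CPM in the somatic libraries and 1140, 1205, 1255 and 2098 CPM in the axonal ones. Between compartments with shPum2 its log2 difference was 2.31 (SE 0.48, edgeR adjusted p = 0.0206). That difference is under the TMM scaling, where the median of all genes was -0.64, and is larger than the difference in CPM.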
